A study of Mus musculus with 6 samples.

Results

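The enzymes that hydroxylate and cross-link collagen were examined in embryonic mouse hearts with and without a functional Hif1a gene in the cells that express Cre. The group holds 9 of the 15118 genes in the expression table, chosen by symbol with earlier results of these data known. It comprises the prolyl 4-hydroxylase subunits P4ha1, P4ha2 and P4hb, the lysyl hydroxylases Plod1, Plod2 and Plod3, and the lysyl oxidases Lox, Loxl1 and Loxl2. Each symbol had 1 row, and all 9 genes were measured above 2 RPKM in every heart.

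The data are RNA-seq profiles of 6 whole Black-Swiss embryonic hearts at E12.5, a stage counted from mating, with valves still forming from cushions of mesenchyme. All 6 embryos carried 1 Nkx2-5 allele with Cre recombinase and 1 wild-type Nkx2-5 allele. The Hif1a genotype was wild-type over floxed in the 3 control hearts (numbers 2, 5 and 9) and null over floxed in the 3 mutant hearts (numbers 5, 8 and 10). Cre under Nkx2-5 control removes the floxed segment in heart muscle and its progenitors. By these genotypes the recombined cells keep a functional allele in control hearts and lack one in mutant hearts, and the cells that Cre does not reach also have fewer functional alleles in mutant than in control hearts. The hearts carry no further label, so the p-values reflect only the spread among these 6 hearts, which may be partly technical. Expression is in RPKM, read numbers divided by the length of constitutive exons and by library size, so levels can be compared between genes per length.

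Collagen chains are modified in the endoplasmic reticulum before they fold into a triple helix. Prolyl 4-hydroxylase, made of a catalytic alpha subunit (P4ha1 or P4ha2) and the shared beta subunit P4hb, turns prolines into hydroxyprolines that hold the helix together. Lysyl hydroxylases of the Plod family modify lysines, and after secretion lysyl oxidases of the Lox family oxidise lysines and hydroxylysines so that collagen and elastin fibres become cross-linked. The hydroxylases need oxygen, iron, 2-oxoglutarate and ascorbate, and the lysyl oxidases are copper enzymes that also use oxygen. P4ha1, P4ha2, Plod2, Lox and Loxl2 are known from hypoxic cells as genes that HIF1, the oxygen-regulated transcription factor with the subunit Hif1a, can activate.

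Low values of single-exon genes implied between 101900000 (mutant 8) and 158600000 (mutant 10) reads behind each library. At these depths the genes had between 275 reads per kilobase (Lox in mutant 8) and 21708 reads per kilobase (P4hb in mutant 10). At the lowest of these the counting error is 6.03% for each kilobase, and it covers counting only. Correlations between hearts over the tested genes ran from 0.9675 to 0.994. For mutant 5 the mean correlation with controls (0.988) exceeded that with its own genotype (0.985). The first principal component held 45.3% of the variance, with control 2 at one end and mutant 8 at the other. Hif1a itself had 46.4 to 61.1 RPKM in control hearts and 55.0 to 77.7 RPKM in mutant ones (limma adjusted p = 0.36). That value covers constitutive exons together and does not check the deletion.

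Loxl2 and Plod2 fell in the mutant hearts, and the other 7 genes did not pass the test. Loxl2 fell to 54.5% and Plod2 to 65.8% of the control mean. P4ha1 and Lox were also lower in every mutant than in every control heart without passing, while P4ha2, the beta subunit P4hb, Plod1, Plod3 and Loxl1 had overlapping values. The test was limma on log2(RPKM + 1) over 13080 genes, called at a Benjamini-Hochberg adjusted p under 0.05. By that rule 0.398% of all tested genes were lower in the mutant hearts, against 2 of these 9 genes. That count was 0 without control 5 or mutant 10, 1 without control 2 or 9 or mutant 8, and 3 without mutant 5. In 4 of the 9 every mutant heart lay below every control heart, as in 9.43% of all tested genes. The 9 genes had a median log2 change of -0.35 with 8 negative, and all tested genes had a median of -0.03 with 57.4% negative.

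**Figure D1:**
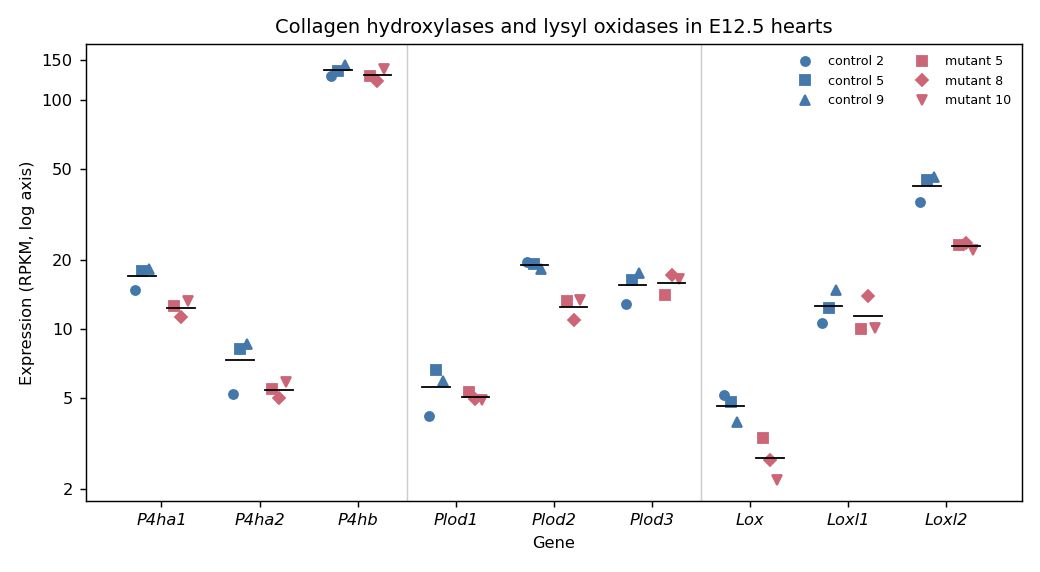
RPKM (log axis) of the 9 genes in each heart, with 3 control hearts in blue, 3 mutant hearts in red and the mean of each genotype as a black line; grey lines separate prolyl 4-hydroxylase subunits, lysyl hydroxylases and lysyl oxidases. Loxl2, Plod2, P4ha1 and Lox show no overlap between genotypes, and P4hb lies above all the others at 120 to 142 RPKM.

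The alpha subunits of prolyl 4-hydroxylase were lower in the mutant hearts on average, without passing the test, and the beta subunit hardly differed. P4ha1 (ENSMUSG00000019916, mm10 chromosome 10, 59323296 to 59373304, plus strand), the main catalytic subunit in most tissues, had 14.9, 17.9 and 18.4 RPKM in controls 2, 5 and 9. In mutants 5, 8 and 10 it had 12.7, 11.3 and 13.2 RPKM. All 3 mutant values were lower than control 2, the lowest control. The log2 change was -0.43 ± 0.11 SE, with limma adjusted p = 0.17 and a 95% interval of -0.68 to -0.18 before adjustment.

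P4ha2 (ENSMUSG00000018906, chromosome 11, 54100095 to 54131665, plus strand), the second catalytic subunit, had 5.20, 8.19 and 8.64 RPKM in controls 2, 5 and 9. Mutants 5, 8 and 10 had 5.46, 5.02 and 5.86 RPKM. Control 2 lay among the mutant hearts, and controls 5 and 9 lay above them. P4ha2 differed by -0.35 ± 0.16 SE on the log2 scale (limma adjusted p = 0.47), and by -0.55 without control 2 and -0.23 without control 9. Its 95% interval, -0.72 to 0.02, reaches from a fall larger than that of P4ha1 to no change.

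P4hb (ENSMUSG00000025130, chromosome 11, 120560298 to 120573253, minus strand) is also protein disulfide isomerase, an abundant enzyme of the endoplasmic reticulum with roles outside prolyl hydroxylation. It had 128, 134 and 142 RPKM in controls 2, 5 and 9, against 127, 120 and 137 RPKM in mutants 5, 8 and 10. The genotypes overlapped, with a log2 change of -0.07 (limma adjusted p = 0.81) and a 95% interval of -0.28 to 0.14. It ran from -0.12 without mutant 10 to -0.02 without mutant 8. The beta subunit thus had several times the level of both alpha subunits in every heart.

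The promoter sequences of these 3 subunits are shown so that P4ha1, without overlap between genotypes, can be set beside P4ha2 and P4hb, which overlapped. They are the 250 bases before the RefSeq start (GRCm38.p6), 5′ to 3′ on the strand of the gene, with the core of the hypoxia response element in capitals. The core searched was ACGTG or GCGTG on either strand, so that CACGT and CACGC mark it on the opposite strand. P4ha1 spans chr10:59323046-59323295, P4ha2 spans chr11:54100674-54100923 and P4hb spans chr11:120573254-120573503 on the minus strand. The RefSeq start of P4ha2 (54100924) lies inside the GENCODE gene, which begins at 54100095, so this window lies within that gene. The windows of P4ha1 and P4hb end just before the GENCODE start.
P4ha1: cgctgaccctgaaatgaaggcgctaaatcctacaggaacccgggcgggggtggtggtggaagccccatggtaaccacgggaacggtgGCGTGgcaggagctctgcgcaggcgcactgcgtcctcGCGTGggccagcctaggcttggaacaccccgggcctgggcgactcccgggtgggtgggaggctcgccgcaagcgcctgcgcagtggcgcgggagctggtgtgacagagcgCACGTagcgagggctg
P4ha2: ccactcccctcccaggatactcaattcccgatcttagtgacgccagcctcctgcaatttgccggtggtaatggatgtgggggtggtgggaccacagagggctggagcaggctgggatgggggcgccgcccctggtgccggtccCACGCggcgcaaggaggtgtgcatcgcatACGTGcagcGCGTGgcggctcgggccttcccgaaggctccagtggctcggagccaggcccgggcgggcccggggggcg
P4hb: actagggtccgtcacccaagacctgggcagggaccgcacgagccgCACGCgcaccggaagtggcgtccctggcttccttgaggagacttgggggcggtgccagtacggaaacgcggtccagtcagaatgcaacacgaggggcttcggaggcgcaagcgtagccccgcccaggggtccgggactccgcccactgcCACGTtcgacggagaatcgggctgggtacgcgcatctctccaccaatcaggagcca

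P4ha1 held 3 cores, which begin 163, 126 and 16 bases before the start, P4ha2 held 3 and P4hb held 2. Of the 9 genes 5 matched the RefSeq promoter table, and the other 2 windows held 1 core (Plod1) and 4 cores (Plod3). Among all 32851 windows 38.6% held a core within 250 bases and 16.7% held 2 or more. All 5 windows held at least 1 core, those of P4hb, Plod1 and Plod3 with overlapping expression included. A match of 5 letters is a description of the sequence and not a binding site. Plod2, Lox, Loxl1 and Loxl2 had no entry.

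Among lysyl hydroxylases Plod2 fell, and its paralogues overlapped between genotypes. Plod2 (ENSMUSG00000032374, chromosome 9, 92542223 to 92608428, plus strand) hydroxylates lysines in the telopeptides of fibrillar collagen, which sets the type of cross-link. It had 19.6, 19.2 and 18.4 RPKM in controls 2, 5 and 9, compared with 13.3, 11.0 and 13.4 RPKM in mutants 5, 8 and 10. The control hearts lay close together, and all mutants lay below them. On the log2 scale Plod2 changed by -0.57 ± 0.10 SE (limma adjusted p = 0.044). The call is close to the threshold: without control 2, 5 or 9 or mutant 8 or 10 the adjusted p was between 0.077 and 0.23, with a log2 change of -0.62 to -0.48. Plod2 shares 346 exon bases with Gm38391 on the opposite strand, and without known strandedness the reads of the pair cannot be told apart.

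Plod1 (ENSMUSG00000019055, chromosome 4, 147909753 to 147936767, minus strand), which modifies lysines in the helical part of collagen, had 4.16, 6.62 and 5.92 RPKM in controls 2, 5 and 9. Mutants 5, 8 and 10 had 5.30, 4.97 and 4.92 RPKM. The mutant hearts lay between control 2 and the other controls. The difference was -0.10 on the log2 scale, with a 95% interval of -0.42 to 0.23 (limma adjusted p = 0.82).

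Plod3 (ENSMUSG00000004846, chromosome 5, 136987019 to 136996648, plus strand), which also adds sugars to hydroxylysine, had 12.9, 16.4 and 17.5 RPKM in controls 2, 5 and 9. Mutants 5, 8 and 10 had 14.1, 17.1 and 16.6 RPKM, all within the range of the controls. Plod3 differed by 0.04 on the log2 scale, with a 95% interval of -0.25 to 0.33 (limma adjusted p = 0.94), and by -0.004 after rescaling without haemoglobin genes. It shares 529 exon bases with Znhit1 on the opposite strand.

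Among lysyl oxidases Loxl2 fell most, Lox was lower in every mutant heart without passing, and Loxl1 overlapped. Loxl2 (ENSMUSG00000034205, chromosome 14, 69609068 to 69695834, plus strand), a cross-linking enzyme of collagen type IV and other matrix proteins, had 35.9, 44.7 and 45.9 RPKM in controls 2, 5 and 9. It had 23.2, 23.7 and 22.1 RPKM in mutants 5, 8 and 10. The mutant hearts were close together, and the lowest control, number 2, was still above them by more than 10 RPKM. The log2 change was -0.84 ± 0.11 SE (limma adjusted p = 0.0105, 95% interval -1.09 to -0.59), which ranked 43 by p among 13080 tested genes. Without control 5 the log2 change was -0.79 with an adjusted p of 0.079 in limma, and without mutant 10 it was -0.81 with 0.074. Loxl2 shares 301 exon bases with the antisense gene Gm27177.

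Lox (ENSMUSG00000024529, chromosome 18, 52516067 to 52529867, minus strand), the founding enzyme of the family and needed for elastic and collagen fibres of arteries, was the least abundant of the 9 genes. It had 5.13, 4.82 and 3.92 RPKM in controls 2, 5 and 9, compared with 3.35, 2.70 and 2.19 RPKM in mutants 5, 8 and 10. The lowest control, number 9, and the highest mutant, number 5, differed by less than 1 RPKM. Lox differed by -0.59 ± 0.14 SE on the log2 scale (limma adjusted p = 0.12, 95% interval -0.90 to -0.28). Without mutant 5 it was -0.71 and passed (adjusted p = 0.045 in limma).

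Loxl1 (ENSMUSG00000032334, chromosome 9, 58287738 to 58313186, minus strand), which is needed for elastic fibre renewal, had 10.6, 12.4 and 14.8 RPKM in controls 2, 5 and 9. Mutants 5, 8 and 10 had 10.0, 13.9 and 10.1 RPKM. Mutant 8 lay among the controls, and the log2 change was -0.14 with a 95% interval of -0.49 to 0.21 (limma adjusted p = 0.77). It was -0.28 without mutant 8 and -0.03 without control 9.

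**Figure D2:**
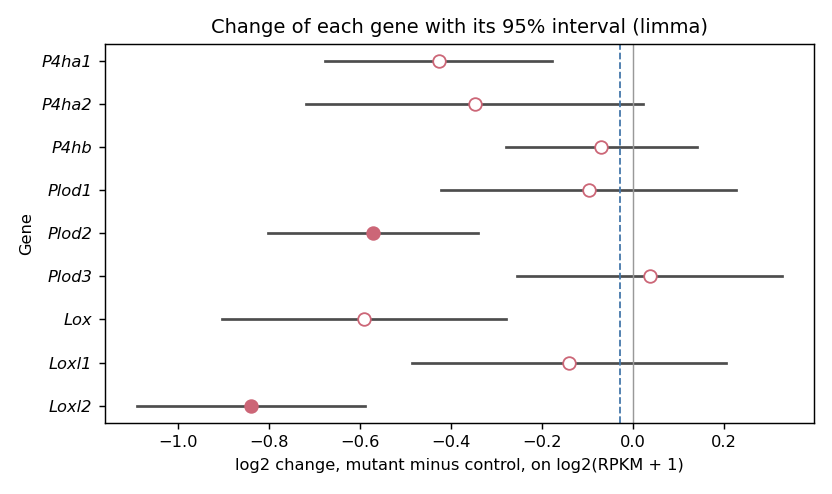
log2 change (mutant minus control, on log2(RPKM + 1)) of each gene from limma as a point with its 95% interval before adjustment; filled points have an adjusted p under 0.05, the grey line marks 0 and the dashed line the median of all tested genes (-0.03). The intervals of P4ha1, Plod2, Lox and Loxl2 lie below 0, and those of the other 5 genes include 0.

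The order of levels shifted in the middle of the range. In control hearts it ran from P4hb (135 RPKM) and Loxl2 (42.1) over Plod2 (19.1), P4ha1 (17.0), Plod3 (15.6) and Loxl1 (12.6) to P4ha2 (7.34), Plod1 (5.57) and Lox (4.63). The 4 genes from Plod2 to Loxl1 overlapped with their neighbours in that order, as did the last 3, and P4hb and Loxl2 stood clear. In mutant hearts Plod3 (15.9 RPKM) came before Plod2 (12.54), without overlap between them, and Plod2, P4ha1 (12.4) and Loxl1 (11.4) overlapped in turn. Lox (2.75 RPKM) stood below Plod1 (5.06) without overlap.

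Ratios within a heart do not depend on how that library was scaled, apart from the pseudocount of 1, and they set the lower genes against their partners. The log2 ratio of P4ha1 to P4hb was -3.02, -2.83 and -2.89 in controls 2, 5 and 9, against -3.23, -3.30 and -3.28 in mutants 5, 8 and 10. Every mutant was lower, by 0.36 on average. Plod2 to Plod3 differed by -0.61 on the log2 scale, with 0.28 ± 0.26 in control and -0.32 ± 0.26 in mutant hearts (SD, n = 3 each), and it was above 0 in each control and below 0 in each mutant heart. Loxl2 to Loxl1 differed most, with a mean of 1.67 ± 0.10 in control and 0.97 ± 0.21 in mutant hearts (SD, n = 3 each), a difference of -0.70. Plod2 to Plod1 differed by -0.47 (-0.29 without control 2), again with no overlap.

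In these 4 pairs the exact two-sided permutation test gave p = 0.1, the smallest that 3 against 3 hearts allow (0.275 after Benjamini-Hochberg adjustment over 11 ratios), so no ratio can pass 0.05 by this test. P4ha2 to P4hb (-0.28, exact p = 0.4), P4ha1 to P4ha2 (-0.08, exact p = 0.9) and Lox to Loxl1 (-0.45, exact p = 0.2) overlapped between genotypes. Without control 2 these 3 differences were -0.44, 0.03 and -0.28, and with a pseudocount of 5 they were -0.16, -0.11 and -0.21.

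Against their substrate Col1a1, the alpha 1 chain of type I collagen, the same genes did not separate the genotypes. P4ha1 to Col1a1 differed by 0.08, Plod2 to Col1a1 by -0.06 and Lox to Col1a1 by -0.08 (exact permutation p between 0.6 and 0.9). Each of the 3 changed sign with single hearts left out, with 0.34, 0.22 and 0.12 without mutant 8 and -0.14, -0.29 and -0.15 without mutant 10. With a pseudocount of 5 Plod2 to Col1a1 was 0.03 and Lox to Col1a1 0.17. Loxl2 to Col1a1, a ratio chosen after the values were seen, differed by -0.33 (exact permutation p = 0.2), and by -0.16 without mutant 8 and -0.48 without mutant 10. These ratios were spread widely in mutant hearts, where Plod2 to Col1a1 was -2.52, -3.19 and -2.18 in mutants 5, 8 and 10 against -2.67 to -2.48 in the controls. Mutant 8 had the highest and mutant 10 the lowest Col1a1 of the mutants, with 108 and 64.1 RPKM.

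**Figure D3:**
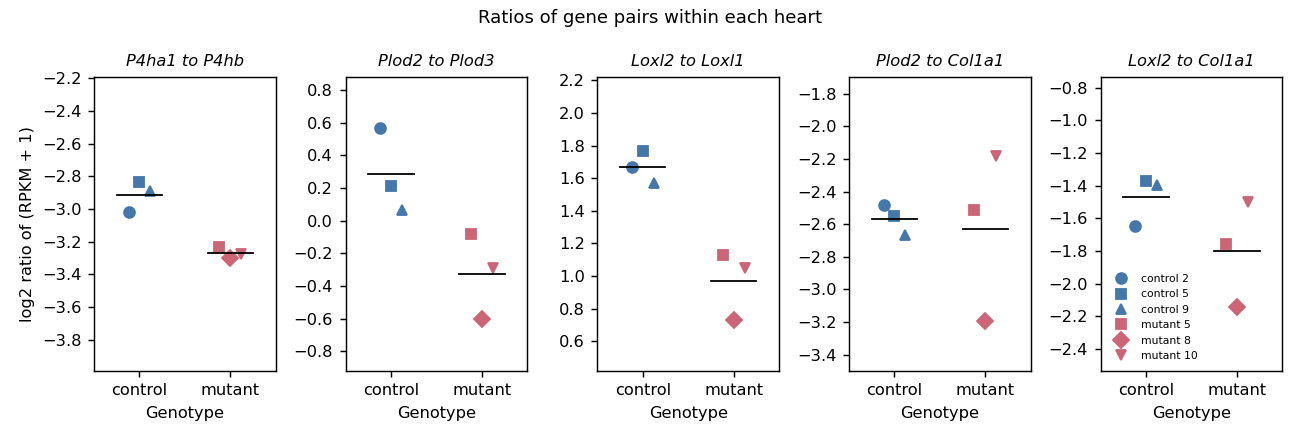
log2 ratio of (RPKM + 1) of gene pairs in each heart, with control hearts in blue, mutant hearts in red and genotype means as black lines; each panel spans the same height on its own axis. P4ha1 to P4hb, Plod2 to Plod3 and Loxl2 to Loxl1 are lower in each mutant than in each control heart, and the ratios to Col1a1 overlap.

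The collagens that these enzymes act on were lower in the mutant hearts in most members, although none passed. Of 19 collagen genes 17 passed the filter on low values, and these had a median log2 change of -0.32 (-0.17 without control 5). Of the 17 genes 15 had a negative change, against 57.4% of all tested genes. In 7 every mutant lay below every control, against 9.43% of all tested genes. At an unadjusted p of 0.05 8 were lower (4 without control 5, 5 without mutant 10), against 6.26% of all tested genes. Col15a1, a basement membrane collagen, came closest, with 2.01 ± 0.43 RPKM in control hearts and 0.71 ± 0.29 RPKM in mutant ones (SD, n = 3 each, limma adjusted p = 0.052). Col1a2, the alpha 2 chain of type I collagen, had 81.8 and 46.6 RPKM (limma adjusted p = 0.11) and Col14a1 3.84 and 2.12 RPKM (0.12). Col1a2 and Col15a1 passed after rescaling without haemoglobin genes, Col1a1 and Col1a2 passed without mutant 8, and Col14a1 and Col15a1 passed without mutant 5. Col15a1 also passed with a pseudocount of 5 and with a robust prior in limma. Col1a2 also passed in the hearts with chromosome Y expression and without control 2 and mutant 8 together. No collagen passed when a single control heart or mutant 10 was left out.

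No further enzyme or chaperone of procollagen passed the test. Of 14 tested genes, among them the prolyl 3-hydroxylases Lepre1, Leprel1 and Leprel2, none was called by limma and none had an unadjusted p under 0.05. Their median was -0.03, with 8 negative. These counts and the median include P4htm (log2 change 0.07) and Slc39a13 (0.02), which are not enzymes or chaperones of procollagen. Serpinh1, the collagen chaperone HSP47, had 252 ± 14.3 RPKM in control hearts and 292 ± 31.1 RPKM in mutant ones (SD, n = 3 each, limma adjusted p = 0.51). Colgalt2, a collagen galactosyltransferase, had a log2 change of -0.17 (limma adjusted p = 0.57) and Leprel1 one of 0.21 (0.60). Serpinh1 and Leprel1 were higher in every mutant than in every control heart. How many of all tested genes were higher in this way was not counted, so no rise is read from these 2. No gene of the list was lower in every mutant heart, against 9.43% of all tested genes. P4ha3, the third alpha subunit, had 3.93, 5.21 and 4.79 RPKM in controls 2, 5 and 9, against 4.25, 3.88 and 4.18 RPKM in mutants 5, 8 and 10. Its genotypes overlapped.

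Of 14 tested further lysyl oxidases and matrix partners none passed, with 12 negative and a median of -0.12 (-0.04 without control 5, -0.20 without control 2). The elastic fibre protein Fbln5 had 1.47 and 0.70 RPKM in control and mutant hearts (limma adjusted p = 0.33), periostin (Postn) 51.3 and 34.6 RPKM (0.34) and fibrillin 1 (Fbn1) 12.7 and 10.5 RPKM (0.42). Loxl3, a paralogue of Loxl2, had a log2 change of -0.02 (limma adjusted p = 0.95).

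Genes of procollagen export and propeptide cleavage had a median of 0.02 over 11 tested genes, none called (-0.01 without control 9, -0.03 without mutant 10, -0.02 after rescaling without haemoglobin genes). Sec24d, a coat protein of the vesicles that carry procollagen, had the smallest p among them, with 13.03 and 10.7 RPKM (limma adjusted p = 0.34), ahead of Creb3l2 (log2 change -0.16) and Tfg (0.13). A list of protein disulfide isomerases, oxidases and other proteins of the endoplasmic reticulum holds relatives of P4hb together with unrelated genes. It had a median of -0.03 over 17 tested genes, none called (0.04 without mutant 8, -0.09 without mutant 10). Prdx4, a peroxidase of the endoplasmic reticulum, had 73.1 and 56.6 RPKM (limma adjusted p = 0.27), Tmx4 a log2 change of -0.28 and Pdia6 one of 0.20.

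A list of other enzymes that use 2-oxoglutarate and oxygen, with genes of their cofactor supply, had 1 lower call among 11 tested genes. Of all tested genes 0.398% were called lower. The list also holds Aspn (asporin), which is neither such an enzyme nor a cofactor gene (log2 change -0.54, limma adjusted p = 0.335). Its counts and median include Aspn. Egln1, the main prolyl hydroxylase that marks HIF subunits for degradation, fell from 14.1 ± 1.29 to 8.74 ± 0.57 RPKM (SD, n = 3 each, log2 change -0.63 ± 0.10 SE, limma adjusted p = 0.028). Leaving out control 5, control 9, mutant 8 or mutant 10 ended the call for Egln1 (limma adjusted p of 0.071 to 0.17). The list had a median of -0.22 (-0.15 without control 5) with 9 negative. At an unadjusted p of 0.05 in limma 6 were lower (1 without control 5, 2 without mutant 10), against 6.26% of all tested genes.

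**Figure D4:**
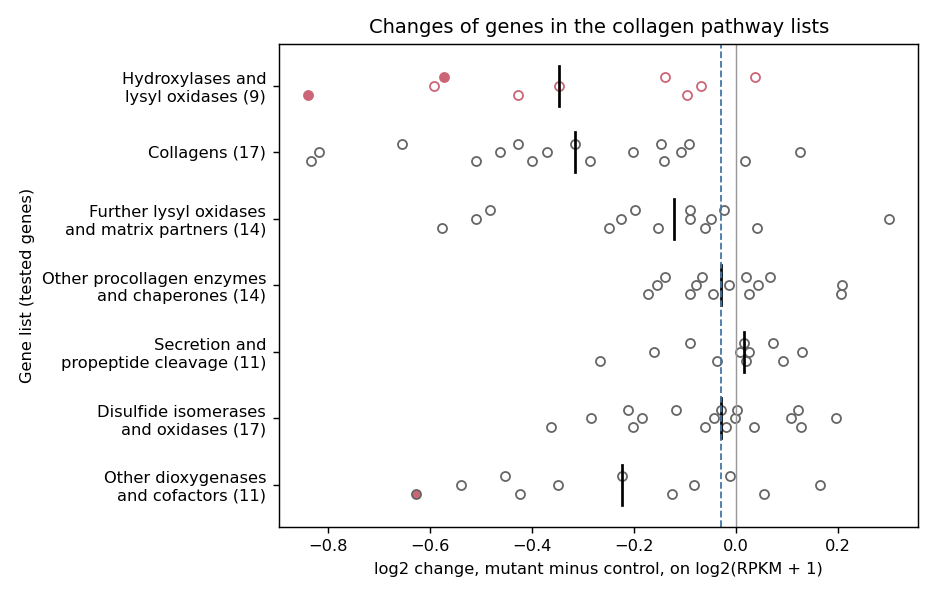
log2 change (mutant minus control, on log2(RPKM + 1)) of each tested gene in the 9 enzymes (red outlines) and 6 lists of the collagen pathway (grey outlines), spread vertically only for legibility; filled points have a limma adjusted p under 0.05, black bars are list medians and the dashed line is the median of all tested genes. The collagens lie lower (median -0.32) than procollagen chaperones (-0.03), and the filled points are Loxl2, Plod2 and Egln1.

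Markers of the cells that make most fibrillar collagen were mostly lower in mutant hearts too, without passing the test. The 12 fibroblast and cushion mesenchyme markers summed to 441 to 502 RPKM in control hearts and 265 to 379 RPKM in mutant ones, with 10 of 12 negative and a median of -0.37. None passed in the main fit. Col1a2 did after rescaling without haemoglobin genes, in the hearts with chromosome Y expression and without control 2 and mutant 8 together. Col1a1 and Col1a2 did without mutant 8. The most abundant of them are collagens, Col1a1 (118 and 84.4 RPKM), Col3a1 (126 and 93.7) and Col1a2, so this sum is not separate from the substrates above. Of the other markers 2 were positive, among them Twist1 at 7.59 and 8.83 RPKM. The rest were negative, among them Dcn at 31.0 and 21.7 RPKM and Tcf21 at 19.3 and 16.4 RPKM.

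Macrophage markers summed to 34.5 to 40.1 RPKM in control hearts and 12.6 to 28.5 RPKM in mutant ones, with all 9 negative and none called, a median of -0.62 (-0.37 without mutant 10), and Lyz2, Csf1r and Mrc1 were the most abundant. Mrc1 and Fcer1g passed without mutant 5. Epicardial markers (82.2 to 107 and 77.8 to 104 RPKM, median -0.07, led by Upk3b), endothelial markers (151 to 172 and 142 to 159 RPKM, median -0.15, led by Emcn) and smooth muscle markers (347 to 375 and 351 to 476 RPKM, median -0.04, led by Acta2) overlapped in sum. With single hearts left out the epicardial median ran from -0.20 (without control 5) to -0.01 (without mutant 5). The endothelial median ran from -0.24 (without mutant 5) to -0.08 (without control 5), and the smooth muscle median from -0.08 (without mutant 10) to 0.05 (without mutant 5). Of 10 endothelial markers 8 were negative, against 57.4% of all tested genes, and none was called. In 3 of the 10 every mutant lay below every control, against 9.43% of all tested genes. At an unadjusted p of 0.05 in limma 3 of the 10 were lower (1 without control 5 or mutant 10), against 6.26%. Of 8 epicardial markers 6 were negative, and of 5 tested smooth muscle markers 3. Erythroid markers summed to 13961 to 16570 and 11718 to 21062 RPKM, and cardiomyocyte markers to 18788 to 20670 and 20278 to 21996 RPKM. Nppa was the 1 called gene of both lists, higher in mutant hearts. Leaving out control 2, control 5 or mutant 10 ended its call (limma adjusted p from 0.052 to 0.074). Hbb-bh1 passed only without mutant 5, with 31.5 to 58.4 RPKM in control and 24.3 to 251 RPKM in mutant hearts. Of 12 cardiomyocyte markers 7 were positive and 5 negative. Actc1 (3833 and 4631 RPKM, limma adjusted p = 0.43) and Myl7 (1550 and 2066 RPKM, 0.27) were higher on average without passing. Of the liver, lung, neural and skeletal muscle markers 3 were measured, and they summed to 6.02 RPKM at most.

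In whole hearts fewer cells of a type and less RNA per cell cannot be told apart. The part of the mesenchyme, macrophage and endothelial markers in the fall of Loxl2 and Plod2 was not tested.

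Over the 6 hearts 34 of 36 pairs among the 9 genes correlated positively. Loxl2 went most closely with P4ha1 (Pearson r = 0.94) and Plod2 (0.89), and Lox with Plod2 (0.86). P4ha1 and P4ha2 correlated at 0.90, and Plod3 and Lox at -0.47. The tested genes most like Loxl2 were Fbxl13 (r = 0.997), the phosphofructokinase Pfkl (0.995) and the enolase Eno1 (0.995). Those most like Plod2 were Gm13179 (0.996), BC055324 (0.995) and Gm13187 (0.995), and those most like Lox were 4732471J01Rik (0.993), Rbbp9 (0.991) and Prex2 (0.990). These values are over 6 hearts that share the difference between genotypes and are descriptions only.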

How the data were processed

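Total RNA from hearts was extracted with TRIzol and sequenced with Illumina libraries, per the labels' protocols. The submitters' processing notes list Trim Galore, TopHat2 and mm10, without versions. How reads were assigned to genes, with which annotation and on which strand, was not stated in the sources used here. RPKM values over constitutive exons, on a linear scale, were deposited by the authors. The header gives no unit, so it was read off the values. For 88.8% to 94.4% of low values in genes with a single exon, RPKM multiplied by exon length came within 0.1 of a whole number of steps. The read number of each library was the depth with the highest such share. Exon length was counted in the way that gave the highest share. The median share over the depths searched was 18.5% to 19.6%. The read numbers rest on 61 values in mutant 10 and up to 196 in mutant 8. Doubled read numbers would give whole steps as well.

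A gene entered the fit when 3 or more libraries reached 1 RPKM (13080 genes, with 2038 left out). The fit on log2(RPKM + 1) over all 6 hearts used limma 3.58.1 (R 4.3.3) with a mean-variance trend, no covariates and two-sided p-values. The fit was tested on simulated data. Ratios were tested by exact permutation. Positions are from GENCODE M21 (mm10), promoters from RefSeq (GRCm38.p6). Tables and figures used Python 3.11.15, pandas 2.3.3 and matplotlib 3.10.9.

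The members and lists were chosen with earlier results of these data known. Named genes are the members, Hif1a, and every called gene or else the 3 smallest p of each pathway list. They include the 3 genes most correlated with each of the 3 members with the smallest p. Named markers are Nppa, which was called, and those that passed with a heart left out. Also named are the most abundant markers of the mesenchyme, macrophage, epicardial, endothelial and smooth muscle lists. Others named (P4ha3, P4htm, Slc39a13, Loxl3, Lepre1, Leprel2, Tcf21, Twist1, Dcn, Eln, Aspn, Actc1, Myl7) were picked after their values were seen. Alternatives were median centring, rescaling without haemoglobin genes, no filter, a minimum of 5 RPKM, pseudocounts of 0.1 and 5, limma without trend or with a robust prior, leaving out each heart, and the 4 hearts with chromosome Y expression. Leaving out control 2 and mutant 8 together was added after seeing the data.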

Additional observations from a re-analysis of the deposited data

How the results depend on the processing

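The number of called genes among the 9 was 2 and stayed so under median centring, rescaling, both filters, the pseudocount of 5, limma without trend and the robust prior. It was 1 with a pseudocount of 0.1, 0 in the 4 hearts with chromosome Y expression, 1 without control 2 and mutant 8 together, and 0 to 3 when single hearts were left out (0 without control 5 or mutant 10, 3 without mutant 5). Plod2 lost its call with a pseudocount of 0.1 (log2 change -0.61, limma adjusted p = 0.0501), in the hearts with chromosome Y expression (-0.51, 0.22) and without control 2 and mutant 8 together (-0.46, 0.069). Loxl2 lost it in the hearts with chromosome Y expression (-0.80, 0.072). With single hearts left out the log2 change was -0.95 to -0.78 for Loxl2, -0.62 to -0.48 for Plod2, -0.71 to -0.48 for Lox, -0.55 to -0.23 for P4ha2, -0.28 to -0.03 for Loxl1, -0.12 to -0.02 for P4hb, -0.26 to 0.02 for Plod1 and -0.086 to 0.12 for Plod3. P4hb was at 0.017 in the hearts with chromosome Y expression. Plod3 was at -0.004 after rescaling and -0.14 without control 2 and mutant 8 together. P4ha1 to P4hb differed by -0.27 with a pseudocount of 5. Loxl2, Plod2, P4ha1, P4ha2, Lox and Loxl1 kept a negative sign in each setting run. Lox had no value with a minimum of 5 RPKM. The cause of the lost calls was not tested. No paired analysis was possible because the genotypes share only heart number 5.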

Other observations

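Among the control hearts, control 2 had the lowest value for 7 of the 9 genes and the highest for the other 2, Plod2 and Lox. P4ha2 at 5.20 RPKM and Plod1 at 4.16 RPKM were lower in control 2 than their means in mutant hearts (5.45 and 5.06 RPKM). Elastin (Eln), a substrate of the lysyl oxidases, varied widely within genotypes, with 9.01, 35.9 and 21.1 RPKM in controls 2, 5 and 9, against 18.1, 18.7 and 6.96 RPKM in mutants 5, 8 and 10. Its log2 change of -0.48 had a standard error of 0.47, and the largest standard error among the 9 enzymes was 0.16 (P4ha2).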
